A study of Mus musculus with 6 samples.

Results

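The genes described here encode the machinery that copies DNA: the proteins that license and fire replication origins, the helicase, the sliding clamp with its loader, the polymerases, the finishing enzymes and the enzymes that supply nucleotides. They were chosen by name as a list of 38 genes, with earlier results of these data known. All 38 were found among the 24454 mouse gene numbers of the deposited table. Their levels are in CPM, the reads of a gene scaled so that each library sums to 1000000. All 38 averaged at least 1 CPM and entered the test, so none was lost to the filter on low levels.

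RNA was sequenced from MTflEcad, epithelial breast cancer cells of the MMTV-Neu mouse strain that come from a tumour of the mammary gland. In that strain the promoter of the mouse mammary tumour virus drives the Neu (ERBB2) oncogene. The line called I80 was given 80 µM H2O2 daily for 7 months, and the line called DI150 was given 150 µM on the same schedule. The control cells, called PBS, received no H2O2 (0 µM) and are also listed at 7 months. All 3 lines share the MMTV-Neu tumour origin. Each line has 2 libraries, described by the submitters as biological duplicates. A dose and the single line given it cannot be told apart, and the sources do not say whether duplicates came from separate long-term cultures. The p-values given here measure the spread between these libraries, which may be technical.

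Libraries held 21017849 to 26608715 assigned reads, and 1 read was worth 0.0376 to 0.0476 CPM. The 7 epithelial markers summed to 2750.0 and 2745 CPM in I80 and to 3098 and 2796 CPM in DI150, against 7709 and 7608 CPM in PBS. The basal keratin Krt14 was at most 0.701 CPM in the treated lines and at least 1674 CPM in PBS. Epcam, Cdh1, Krt8 and Krt18 were present in each library. Presence does not mean an unchanged level, and the levels of the markers other than Krt14 are not given singly. The 8 fibroblast markers summed to 23.4 to 24.0 CPM in I80, 22.0 to 22.8 CPM in DI150 and 21.8 to 23.8 CPM in PBS, with Pdgfrb and Thy1 at 0 in every library. The immune markers summed to 1.87 and 2.06 CPM in I80 and 1.57 and 1.83 CPM in DI150, against 9.77 and 17.2 CPM in PBS, where most of it was Csf1r, and Cd3e and Adgre1 were at 0 in every library. The 4 endothelial markers summed to at most 0.742 CPM in any library, with Kdr at 0. Of the 25 markers in all, 11 entered the test used below. There, 7 were called lower and 2 higher in I80 than in PBS, and 7 lower and 3 higher in DI150. Of all genes tested, 34.2% were called lower and 32.3% higher in I80, and 36.1% and 32.7% in DI150. The part of these markers in the results was not tested.

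As background, replication is prepared in G1, when the origin recognition complex and Cdc6 together with Cdt1 load the MCM helicase as an inactive ring on DNA. In S phase, kinases and firing factors recruit Cdc45 and the GINS complex, the helicase opens the DNA, primase and polymerase alpha start each strand, and the clamp PCNA holds the replicative polymerases in place. Many of these genes are transcribed in late G1 and S phase under E2F transcription factors, and their messages are widely used as signs of proliferation. In bulk RNA, fewer cells in S phase and less message per cell cannot be told apart.

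More replication genes fell than rose in each treated line. In I80, 21 of 38 fell, 7 rose and 10 did not pass the test (limma with Benjamini-Hochberg adjustment over all 11428 genes tested, called at an adjusted p under 0.05). In DI150, 28 fell, 4 rose and 6 did not pass. Counting both directions, 28 of the 38 genes were called in I80 and 32 in DI150, where 66.4% and 68.7% of all genes tested were. Over all genes tested, 34.2% were called lower and 32.3% higher in I80 than in PBS, and 36.1% lower and 32.7% higher in DI150 than in PBS. Among the replication genes the shares called lower were 55.3% in I80 and 73.7% in DI150. The shares called higher were 18.4% in I80 and 10.5% in DI150. The median log2 fold change was -0.33 in I80 against PBS, beside -0.0020 over all genes tested, and -0.52 in DI150 against PBS, beside -0.032. Both comparisons use the same PBS libraries and are not independent of each other.

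Summed over the 38 genes, the level was 5249.6 and 5439 CPM in I80 and 5264 and 5285 CPM in DI150, against 7364 and 6355 CPM in PBS. The PBS libraries differed from each other in this respect: all 38 genes were higher in PBS replicate 1 than in PBS replicate 2, by a median of 0.21 on the log2 scale, whereas the median over all genes tested was -0.040. Cdkn1a, which encodes the cell cycle inhibitor p21, stood at 113 and 212 CPM in the same PBS libraries, and its part in this difference was not tested. Replicate 1 differed from the other library of I80 and of DI150 by a median of -0.054 and -0.037 over the replication genes. Without PBS replicate 1, 20 genes fell in I80 and 26 in DI150, with medians of -0.25 and -0.42. The plot of fold changes by role shows where the falls lie.

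**Figure D1:**
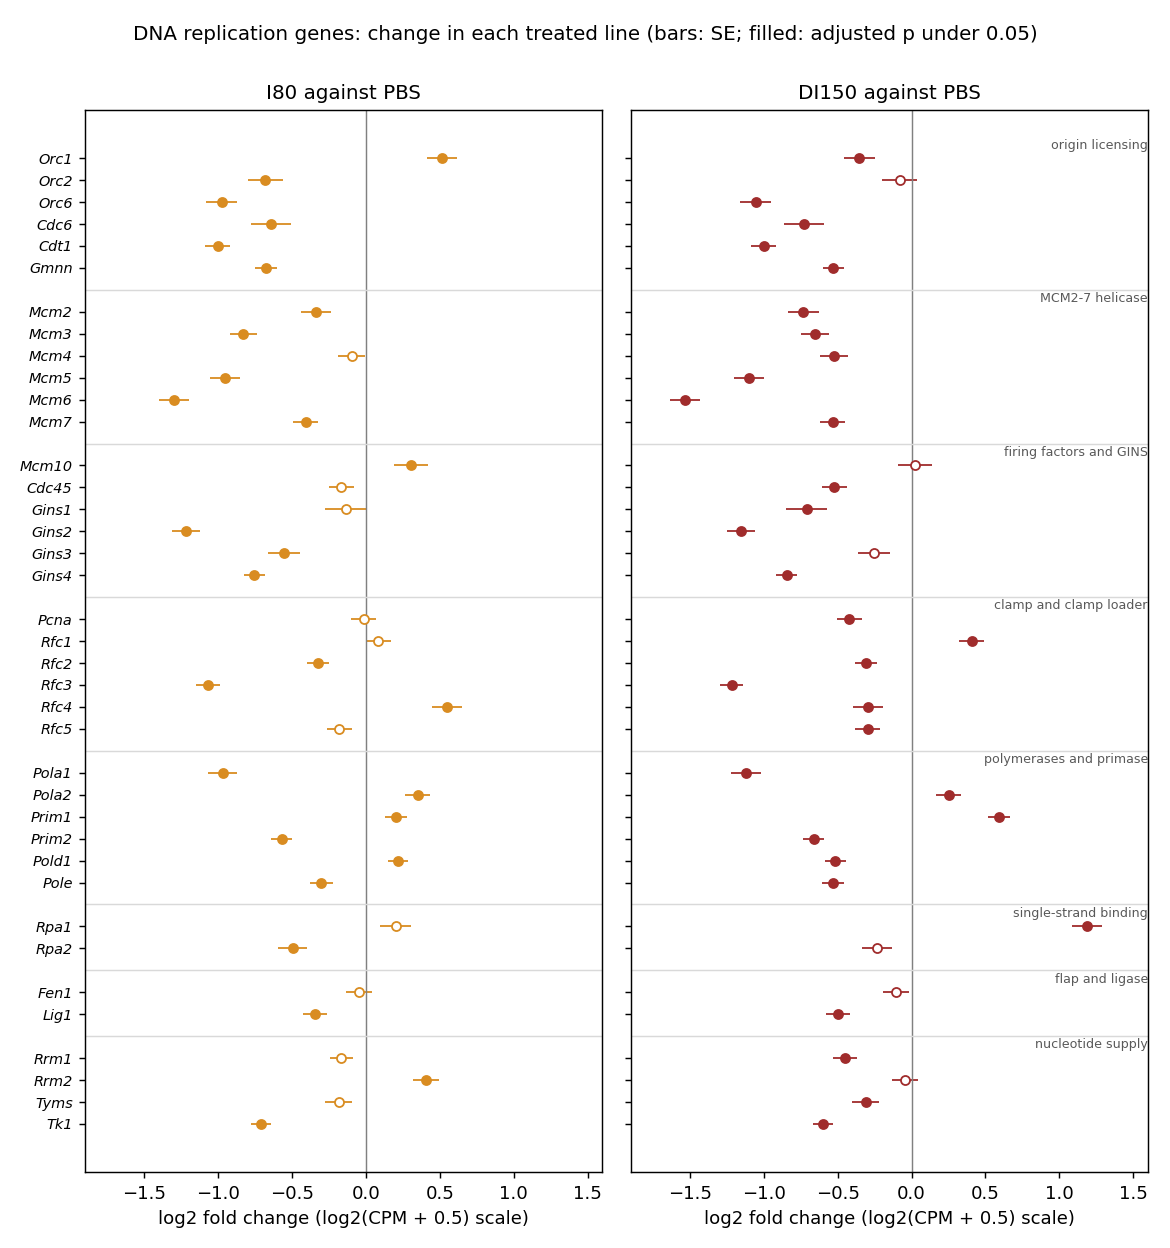
Log2 fold change of each of the 38 replication genes in I80 against PBS and in DI150 against PBS, on the log2(CPM + 0.5) scale, grouped by role. Points are limma estimates with their standard errors, filled where the adjusted p is under 0.05. In DI150 against PBS, Mcm6 lies lowest at -1.53 and Rpa1 highest at 1.19.

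Most origin licensing genes fell in both lines. Of 6, 5 fell and 1 rose in I80, and 5 fell and 0 rose in DI150. Counts by role stand beside all genes tested, of which 34.2% fell and 32.3% rose in I80. In DI150, 36.1% of all genes tested fell and 32.7% rose. Cdt1, which brings the helicase to origins, stood at 64.7 and 69.8 CPM in I80 and 63.5 and 71.4 CPM in DI150, against 139.7 and 131 CPM in PBS. Both treated lines lay near the same level and well below both PBS libraries, 2.01-fold lower in I80 and 2.00-fold lower in DI150 (limma adjusted p = 3.03e-05 and 2.90e-05). Orc6, a subunit of the origin recognition complex, stood at 44.4 and 48.6 CPM in I80 and 41.2 and 47.0 CPM in DI150, against 98.8 and 85.5 CPM in PBS. It was 1.98-fold lower in I80 and 2.09-fold lower in DI150 (limma adjusted p = 0.000106 and 6.67e-05). Reads of Orc6 may include those of Vps35, which overlaps its exons on the opposite strand and had log2 fold changes of -0.84 in I80 and -1.05 in DI150.

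Gmnn, which encodes geminin, the protein that blocks Cdt1 outside G1, fell along with its partner, by 0.68 and 0.53 on the log2 scale in I80 and DI150. The Cdt1 to Gmnn ratio of CPM within a library was 1.47 and 1.61 in I80 and 1.31 and 1.47 in DI150, against 1.93 and 1.92 in PBS. It was lower in each treated library than in either PBS library. Cdc6, which loads the helicase with Cdt1, fell by 0.64 in I80 and by 0.73 in DI150. Orc1 and Orc2 went separate ways between the lines. Orc1, the largest subunit of the origin recognition complex, had log2 fold changes of 0.51 in I80 and -0.35 in DI150, and both were called. The DI150 call was lost in 5 of 19 alternative fits (limma, edgeR or DESeq2 adjusted p 0.00687 to 0.0826). Orc2, another subunit, stood at 75.8 and 73.0 CPM in I80 and 112 and 114 CPM in DI150, against 137 and 105 CPM in PBS. The I80 libraries were below all others, and the DI150 libraries lay within the range of the PBS libraries (limma adjusted p = 0.00135 for I80 and 0.567 for DI150 against PBS).

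All 6 subunits of the MCM helicase had lower means in both lines than in PBS, and the fall was uneven among them. In I80, 5 of 6 passed the test, and in DI150 6 of 6. Mcm6 stood at 235 and 247 CPM in I80 and 193 and 217 CPM in DI150, against 649 and 543 CPM in PBS. It was 2.47-fold lower in I80 (-1.30 ± 0.10 SE on the log2 scale, limma adjusted p = 1.87e-05) and 2.91-fold lower in DI150 (-1.53 ± 0.10 SE, limma adjusted p = 7.07e-06), the largest falls of any of the 38 genes. Mcm5 stood at 306 and 326 CPM in I80 and 283 and 289 CPM in DI150, against 682 and 551 CPM in PBS, 1.95-fold lower in I80 and 2.15-fold lower in DI150 (limma adjusted p = 0.000103 and 4.68e-05). Mcm4, in contrast, stood at 227 and 248 CPM in I80 and 168 and 186 CPM in DI150, against 274 and 236 CPM in PBS. Its I80 libraries overlapped the PBS libraries (limma adjusted p = 0.386) and its DI150 libraries lay below both (1.44-fold lower, limma adjusted p = 0.00167). Mcm2, Mcm3 and Mcm7 had log2 fold changes of -0.34, -0.83 and -0.41 in I80 and of -0.73, -0.65 and -0.53 in DI150.

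The helicase carries its 6 subunits in equal number, so their messages can be set side by side per length. Per kilobase of annotated exon, Mcm3 was the most abundant in each library and Mcm5 came next. Mcm6 was last in all 4 treated libraries and stood in the third place in both PBS libraries. Its level was 53.8 and 56.4 CPM per kb in I80 and 44.2 and 49.6 CPM per kb in DI150, against 148 and 124 CPM per kb in PBS. Mcm4, last of the subunits in PBS, was at 63.3 and 69.2 CPM per kb in I80 and 46.8 and 51.8 CPM per kb in DI150, against 76.4 and 65.8 CPM per kb in PBS. The ratio of the highest to the lowest subunit was 1.92 and 1.91 in I80 and 2.61 and 2.49 in DI150, against 2.69 and 2.60 in PBS. Exon lengths are from GENCODE M21, with the exons of all basic transcripts of a gene merged, and transcripts shorter than that would make a level too low.

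**Figure D2:**
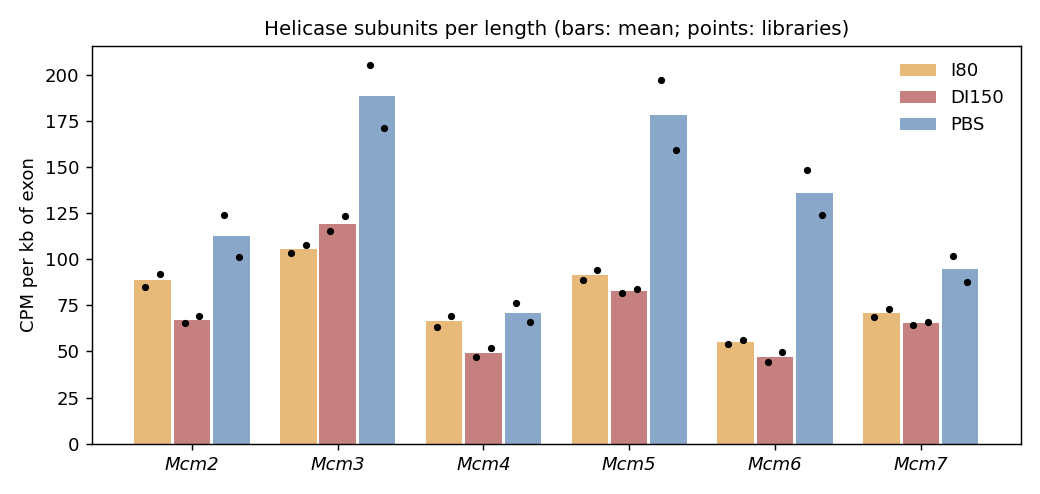
Level of the 6 helicase subunits in CPM per kilobase of exon in I80, DI150 and PBS. Bars are means of 2 libraries and points are the libraries. Mcm6 is the lowest subunit in both treated lines, and Mcm4 is the lowest in PBS.

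Promoter windows of 4 genes are printed here, chosen after values and matches had been seen. Mcm6, Mcm5 and Rfc3 were at least 1.95-fold lower in both lines and hold more than 1 of the words searched, and Rpa1 had the largest rise. Cdt1 and Pola1, which fell about as far as Mcm5, hold 1 word each, and Orc6 holds 0. Mcm3 and Mcm7 also hold more than 1 word and fell less than the 3 genes printed. Their log2 fold changes were -0.83 and -0.41 in I80 and -0.65 and -0.53 in DI150. Gins2, among the genes with the largest falls, has no window. The windows are RefSeq's on GRCm38.p6 and run from 250 bases before to 50 bases after a transcript start. Capitals mark the E2F-type 8-base words TTTGGCGC, TTTCCCGC, TTTCGCGC and TTTGCCGC, searched on both strands, overlapping matches included.
Mcm6 (chr1:128359656-128359955, minus strand): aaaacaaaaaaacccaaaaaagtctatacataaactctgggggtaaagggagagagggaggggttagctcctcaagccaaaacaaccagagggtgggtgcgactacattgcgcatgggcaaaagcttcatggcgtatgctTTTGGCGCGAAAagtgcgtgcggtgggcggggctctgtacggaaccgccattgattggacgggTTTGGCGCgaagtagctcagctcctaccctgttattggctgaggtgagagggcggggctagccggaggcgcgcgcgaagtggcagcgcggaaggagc
Mcm5 (chr8:75109259-75109558, plus strand): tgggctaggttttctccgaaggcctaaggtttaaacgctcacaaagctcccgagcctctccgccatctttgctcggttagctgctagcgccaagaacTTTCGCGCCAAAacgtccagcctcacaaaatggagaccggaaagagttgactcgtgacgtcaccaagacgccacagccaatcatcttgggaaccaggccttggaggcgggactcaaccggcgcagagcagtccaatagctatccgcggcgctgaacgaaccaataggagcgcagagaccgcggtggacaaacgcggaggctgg
Rfc3 (chr5:151651159-151651458, minus strand): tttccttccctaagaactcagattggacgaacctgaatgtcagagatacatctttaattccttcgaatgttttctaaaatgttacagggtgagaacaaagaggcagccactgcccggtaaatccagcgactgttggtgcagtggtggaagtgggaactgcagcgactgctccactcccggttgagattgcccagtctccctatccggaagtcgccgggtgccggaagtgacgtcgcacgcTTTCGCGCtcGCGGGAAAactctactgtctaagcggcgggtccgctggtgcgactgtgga
Rpa1 (chr11:75348334-75348633, minus strand): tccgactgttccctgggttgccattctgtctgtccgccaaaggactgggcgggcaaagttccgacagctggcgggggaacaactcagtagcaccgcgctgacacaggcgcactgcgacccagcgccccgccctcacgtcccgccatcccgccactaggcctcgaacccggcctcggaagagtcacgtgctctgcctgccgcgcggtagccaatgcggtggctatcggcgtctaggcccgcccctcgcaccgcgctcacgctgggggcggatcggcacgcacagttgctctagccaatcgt

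The Mcm6 window holds 3 such words. A pair of them overlaps and starts at positions -110 and -106, and the remaining one starts at -47. The Mcm5 window holds an overlapping pair starting at positions -153 and -149, and the Rfc3 window holds a pair beside each other, starting at positions -10 and 1. Position 1 is the first base of the transcript. The Rpa1 window has none. Of the 38 genes, 30 have a window in the table, and 12 of those (40.0%) hold at least 1 of the 4 words. That compares with 2.60% of all 27025 genes with a window and 5.05% of the 9137 tested genes with one. Singly, TTTGGCGC was in 5 replication genes (0.585% of all genes), TTTCCCGC in 6 (1.24%), TTTCGCGC in 6 (0.374%) and TTTGCCGC in 0 (0.507%). CCAAT, the word bound by NF-Y, was in 20 of 30, and in 41.1% of all genes with a window. A match is a run of letters and was not tested as a binding site.

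The 12 replication genes with an E2F-type word had a median log2 fold change of -0.74 in I80 and -0.69 in DI150, and the 18 without one had -0.11 and -0.26. Of the genes with a word, 10 fell and 2 rose in I80, and 11 fell and 0 rose in DI150. Among those without, 5 fell and 5 rose in I80, and 9 fell and 4 rose in DI150. The 8 genes that have no window, Gmnn, Mcm4, Gins1, Gins2, Gins4, Rfc2, Prim2 and Pole, are in neither group. Each of them fell in DI150, and all but Mcm4 and Gins1 fell in I80, so the contrast leaves out falls of unknown word status. The ranges overlap, since Orc1 with a word rose in I80 and Orc6 without one fell by about as much as Mcm5 in both lines. Cdt1, Mcm5 and Gins3 (chromosome 8) and Mcm3 and Mcm6 (chromosome 1) hold a word. Orc6 (chromosome 8) and Orc2 (chromosome 1) hold none. Genes tested on chromosomes 8 and 1 had medians of -0.64 and -0.43 in I80 and -0.56 and -0.35 in DI150. Shares over all genes tested were 34.2% lower and 32.3% higher in I80, and 36.1% lower and 32.7% higher in DI150. Changes of the other tested genes that hold a word were not examined. Neither the difference between the groups of genes nor the part of the chromosomes in it was tested.

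**Figure D3:**
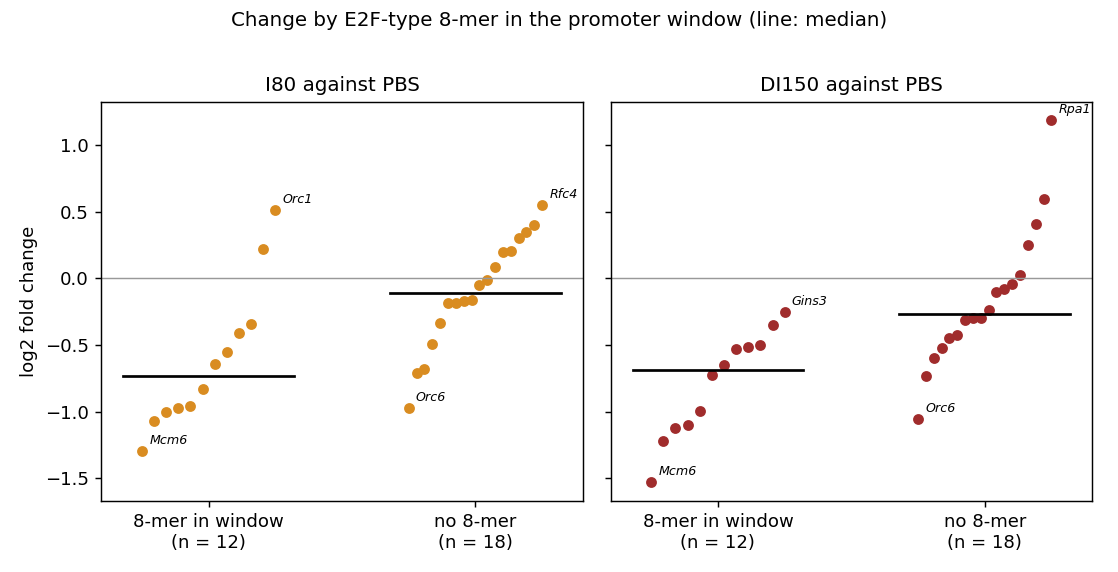
Log2 fold change of the replication genes with a promoter window, split by whether the window holds an E2F-type 8-base word, in I80 against PBS and DI150 against PBS. Each point is a gene, lines are medians, and the lowest and highest gene of each group are named. Medians are -0.74 with and -0.11 without a word in I80, and -0.69 and -0.26 in DI150.

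The next genes turn the loaded helicase into a moving fork. Of 6, 3 fell and 1 rose in I80, and 4 fell and 0 rose in DI150. Gins2, a subunit of the GINS complex that holds Cdc45 to the helicase, stood at 18.7 and 17.5 CPM in I80 and 18.5 and 19.4 CPM in DI150, against 43.8 and 41.6 CPM in PBS. The treated libraries lay close together and far below both PBS libraries, 2.36-fold lower in I80 and 2.26-fold lower in DI150 (limma adjusted p = 1.83e-05 and 2.24e-05). Its exons overlap those of Gse1 on the opposite strand, whose log2 fold changes were -0.044 and 0.59. The other GINS genes did not move in step. Gins4 fell by 0.75 and 0.85 on the log2 scale in I80 and DI150, Gins1 had -0.14 (not called) and -0.71, and Gins3 had -0.55 and -0.26 (not called). Cdc45, the helicase cofactor, fell in DI150 (-0.52) and stood at -0.17 without a call in I80. Mcm10, which helps to activate the helicase and is no part of the ring, stood at 102 and 109 CPM in I80 and 83.7 and 89.7 CPM in DI150, against 96.2 and 75.3 CPM in PBS. Its I80 libraries were above both PBS libraries (limma adjusted p = 0.0461), a call lost in 9 of 19 alternative fits (adjusted p 0.00472 to 0.205), and its DI150 libraries lay within the PBS range (limma adjusted p = 0.855).

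**Figure D4:**
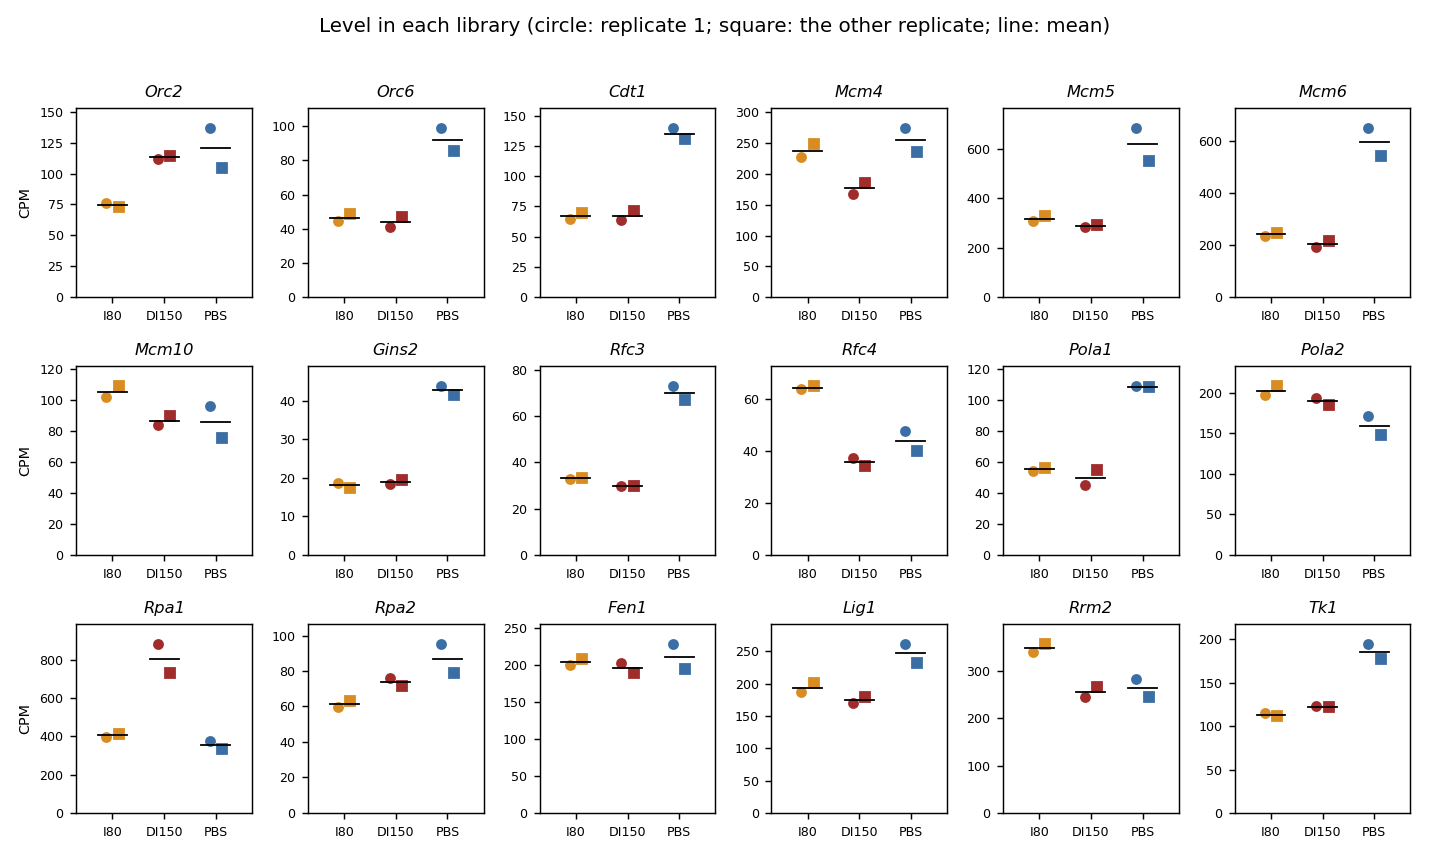
CPM of 18 replication genes in every library of I80, DI150 and PBS, with the mean as a line and each vertical axis starting at 0. Circles are replicate 1 and squares the other replicate. Cdt1, Orc6, Mcm5, Mcm6, Gins2, Rfc3, Pola1, Rpa2, Lig1 and Tk1 are lower in all 4 treated libraries than in both PBS libraries. Rpa1 is highest in both DI150 libraries.

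In the clamp and its loader, 2 of 6 genes fell and 1 rose in I80, and 5 fell and 1 rose in DI150. The share that fell in I80, 33.3%, is not above that of all genes tested (34.2%). Rfc3, a subunit of replication factor C, the complex that opens the clamp and places it on DNA, stood at 32.8 and 33.4 CPM in I80 and 29.7 and 29.9 CPM in DI150, against 72.9 and 67.2 CPM in PBS. It was 2.12-fold lower in I80 and 2.35-fold lower in DI150 (limma adjusted p = 1.66e-05 and 7.57e-06), and no treated library came near the PBS libraries. Rfc4, another subunit, stood at 63.8 and 65.0 CPM in I80 and 37.2 and 34.2 CPM in DI150, against 47.9 and 40.2 CPM in PBS. I80 lay above PBS and DI150 below it, with log2 fold changes of 0.55 (limma adjusted p = 0.00190) and -0.29 (limma adjusted p = 0.0318), the DI150 call being lost in 8 of 19 alternative fits (adjusted p 0.00800 to 0.162). Rfc4 exons overlap those of Eif4a2 on the opposite strand, whose log2 fold changes were 0.32 and 0.50. Rfc1, the large subunit, rose in DI150 (0.41) and had 0.083 without a call in I80. Rfc2 fell in both lines (-0.33 in I80 and -0.31 in DI150), and Rfc5 had -0.18 without a call in I80 and fell in DI150 (-0.30). Pcna, the clamp itself and a common proliferation marker, stood at 164 and 153 CPM in I80 and 120.2 and 119 CPM in DI150, against 172 and 149 CPM in PBS, and was called lower in DI150 (log2 fold change -0.42, limma adjusted p = 0.00289) but not in I80 (-0.015, limma adjusted p = 0.884).

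Polymerase alpha and primase, the complex that starts each new strand, had subunits that moved in opposite directions. Pola1, the catalytic subunit, stood at 54.3 and 56.0 CPM in I80 and 44.9 and 54.8 CPM in DI150, against 109 and 108 CPM in PBS. It was 1.97-fold lower in I80 and 2.18-fold lower in DI150 (limma adjusted p = 8.53e-05 and 3.72e-05). Pola2, the accessory subunit, stood at 197 and 208 CPM in I80 and 194 and 185 CPM in DI150, against 171 and 148 CPM in PBS. All treated libraries were above both PBS libraries, 1.27-fold in I80 and 1.19-fold in DI150 (limma adjusted p = 0.00684 and 0.0272), and the call was lost in 1 and 7 of 19 alternative fits. The ratio of Pola1 to Pola2 CPM was 0.275 and 0.269 in I80 and 0.232 and 0.296 in DI150, against 0.637 and 0.731 in PBS. The primase subunits also moved in opposite directions. Prim1, the catalytic subunit, rose (0.20 in I80 and 0.59 in DI150) while Prim2, the large subunit, fell (-0.57 and -0.66). The ratio of Prim1 to Prim2 CPM was 1.39 and 1.42 in I80 and 1.85 and 2.08 in DI150, against 0.822 and 0.812 in PBS. The I80 call of Prim1 was lost in 9 of 19 alternative fits (adjusted p 0.0280 to 0.208), and its DI150 call in 0.

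The catalytic subunits of the replicative polymerases both fell in DI150 and parted in I80. Pole, the leading-strand polymerase, fell in both lines (-0.30 in I80 and -0.53 in DI150). Pold1, the catalytic subunit of polymerase delta, rose in I80 (0.22, limma adjusted p = 0.0246, a call lost in 3 of 19 alternative fits) and fell in DI150 (-0.52, limma adjusted p = 0.000350).

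Rpa1 had the largest rise of the 38 genes, in DI150. It encodes the large subunit of replication protein A, which coats single-stranded DNA at forks and at sites of repair. Rpa1 stood at 398 and 411 CPM in I80 and 882 and 731 CPM in DI150, against 374 and 332 CPM in PBS. Both DI150 libraries were above every other library, 2.29-fold over PBS (1.19 ± 0.10 SE on the log2 scale, limma adjusted p = 3.30e-05), while I80, though above both PBS libraries, was not called (limma adjusted p = 0.120). Its partner Rpa2 stood at 59.7 and 63.1 CPM in I80 and 75.9 and 71.4 CPM in DI150, against 95.2 and 79.0 CPM in PBS. I80 was below PBS (1.42-fold, limma adjusted p = 0.00290), and DI150 did not pass (limma adjusted p = 0.0665). The ratio of Rpa1 to Rpa2 CPM was 6.68 and 6.51 in I80 and 11.6 and 10.2 in DI150, against 3.93 and 4.20 in PBS, and the 3 groups do not overlap in this ratio.

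Fen1 was called in neither line. It encodes the nuclease that trims the flaps of lagging-strand fragments and stood at 199.6 and 207 CPM in I80 and 202 and 189 CPM in DI150, against 228 and 194 CPM in PBS (limma adjusted p = 0.654 in I80 and 0.320 in DI150). Lig1, the ligase that joins those fragments, stood at 186 and 201 CPM in I80 and 169 and 179 CPM in DI150, against 261 and 232 CPM in PBS. It was 1.27-fold lower in I80 and 1.42-fold lower in DI150 (limma adjusted p = 0.00623 and 0.000933), with no overlap between treated and PBS libraries.

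Among the genes of nucleotide supply, Tk1 fell in both lines and Rrm2 rose in I80. Tk1, the S phase thymidine kinase, stood at 115 and 112 CPM in I80 and 123 and 122 CPM in DI150, against 195 and 178 CPM in PBS, 1.64-fold lower in I80 and 1.52-fold lower in DI150 (limma adjusted p = 6.34e-05 and 0.000151). Rrm2, the small subunit of ribonucleotide reductase, stood at 340.3 and 357 CPM in I80 and 245 and 267 CPM in DI150, against 284 and 244 CPM in PBS. I80 was above both PBS libraries (1.32-fold, limma adjusted p = 0.00448), and DI150 overlapped them (limma adjusted p = 0.681). Rrm1, the large subunit, and Tyms, which makes thymidylate, were not called in I80 (-0.17 and -0.19) and fell in DI150 (-0.45 and -0.31). The table also lists Tyms-ps, a pseudogene copy with a mean of 2.49 CPM, so reads of Tyms may be divided between them. The ratio of Rrm2 to Rrm1 CPM was 0.731 and 0.778 in I80 and 0.640 and 0.710 in DI150, against 0.510 and 0.506 in PBS.

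DI150 against I80 is the test of whether the treated lines differ from each other. Here 11 replication genes were lower in DI150, 4 were higher and 23 did not pass, where 43.8% of all genes tested were called, 21.9% lower and 21.9% higher. As shares of the 38 genes these are 28.9% and 10.5%, and together no larger than the share of all genes called. The count of lower genes rests on few libraries: it was 5 without I80 replicate 1, 4 without I80 replicate 2, 6 without DI150 replicate 1 and 7 without DI150 replicate 3. The count of higher genes was 2 without I80 replicate 1 and 7 without PBS replicate 1 or without PBS replicate 2. Rpa1 was 1.99-fold higher in DI150 (limma adjusted p = 0.000357), Orc2 1.52-fold higher (limma adjusted p = 0.00550), and Prim1 and Rfc1 rose by 0.39 and 0.33 on the log2 scale. Orc1 was 1.84-fold lower in DI150, Rfc4 1.80-fold lower and Pold1 1.67-fold lower (limma adjusted p = 0.000647, 0.000661 and 0.000252). Those 3 genes were above PBS in I80 and below PBS in DI150. The other 8 that fell were Gins1, Rrm2, Mcm4, Pcna, Mcm2, Cdc45, Rrm1 and Pole, with log2 fold changes from -0.57 to -0.23. For Mcm6, Mcm5, Cdt1, Orc6, Gins2, Rfc3 and Pola1, the 7 genes with the largest falls in both lines, the log2 difference between DI150 and I80 ran from -0.23 to 0.064 and did not pass. That of Mcm6 passed in 3 of 19 alternative fits (adjusted p 0.0445 to 0.393).

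Calls differed in how firmly they stood. Of 28 genes called in I80, 20 were called in each of the 19 alternative fits. Mcm2, Pold1 and Pole lost the call without I80 replicate 1 and without I80 replicate 2, Rfc2 and Lig1 without I80 replicate 1, and Pola2 without I80 replicate 2. Mcm2 also lost it without PBS replicate 1. Mcm10 and Prim1 lost it without any 1 of the libraries except PBS replicate 1. The count of genes that rose in I80 was 4 without I80 replicate 1 and 3 without I80 replicate 2.

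Of 32 genes called in DI150, 25 were called in each alternative fit. Orc1, Rfc4, Rfc5, Pola2 and Tyms lost the call without either DI150 library, Orc1 and Rfc4 without PBS replicate 1, Pola2 without PBS replicate 2, and Rfc4 and Pola2 without either I80 library. Rfc1 and Rfc2 lost it with a replicate block (limma adjusted p = 0.0560 and 0.0759). Without PBS replicate 2, Cdc45, Rfc5, Rrm1 and Tyms were also called lower in I80, and Orc2, Gins3, Rpa2 and Fen1 in DI150. No called gene changed its direction in these fits. Reads of Cdc45, Fen1, Gins2, Lig1, Mcm7, Orc2, Orc6, Rfc2, Rfc4, Rfc5 and Tk1 are uncertain in another way, since their exons overlap those of a protein-coding gene on the opposite strand.

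The position of a gene on its chromosome was set beside its change. After the values had been seen, each gene was compared with the median of the tested genes of its chromosome and with the median of the 10 tested genes on each side of it. Rfc3 has only 10 such neighbours in all. Chromosome medians ran from -0.64 on chromosome 8 to 0.43 on chromosome 2 in I80 against PBS, and from -0.56 on chromosome 8 to 0.49 on chromosome 12 in DI150 against PBS. Chromosome 8, with the lowest median in both, carries 6 of the replication genes, Orc6, Cdt1, Mcm5, Gins2, Gins3 and Gins4. All 6 fell in I80 and 5 of them in DI150. Leaving chromosome 8 out, 15 of 32 genes fell and 7 rose in I80 (median -0.18), and 23 fell and 4 rose in DI150 (median -0.47). Shares over all genes tested, on any chromosome, were 34.2% lower and 32.3% higher in I80. In DI150 they were 36.1% lower and 32.7% higher. Shares of the genes on chromosome 8 alone were not counted. Taken relative to its own chromosome, the median log2 fold change of the 38 genes was -0.31 in I80 and -0.46 in DI150, and 30 and 30 genes lay below their chromosome's median.

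Some genes moved with their neighbours and others did not. Orc1 had log2 fold changes of 0.51 in I80 and -0.35 in DI150, and its neighbours had medians of 0.48 and -0.26. Between DI150 and I80, Orc1 differed by -0.87 and its neighbours by -0.77. Prim1 had 0.20 and 0.59 where its neighbours had 0.14 and 0.61, and Cdc6 had -0.64 and -0.73 where its neighbours had -0.61 and -0.72. Among other genes called higher in I80, Rrm2 had 0.40 beside a neighbour median of 0.43, and Pola2 had 0.35 beside 0.28. In I80 Pold1 had 0.22 beside 0.14, Mcm10 had 0.31 beside 0.70, and Rfc4 had 0.55 beside 0.074. In DI150 Rrm2 had -0.043 beside 0.64, Pola2 had 0.25 beside 0.36, and Pold1 had -0.52 beside 0.0071. Mcm10 there had 0.026 beside 0.34, and Rfc4 had -0.29 beside 0.027. Rrm2 and Pold1 thus lay near their neighbours in I80 and below them in DI150. Rpa1 (chromosome 11 at 75300259 to 75348454, GRCm38) stood apart, at 1.19 in DI150 beside a median of -0.072. Mcm6 (chromosome 1 at 128331575 to 128359705) was at -1.30 and -1.53 beside -0.28 and -0.34, and Rfc3 (chromosome 5 at 151642817 to 151651208) at -1.07 and -1.22 beside -0.21 and -0.37. Gmnn on chromosome 13 was at -0.68 and -0.53 beside 0.024 and 0.27. Of the 38 genes, 29 in I80 and 34 in DI150 lay below the median of their neighbours, a count not made for other genes. What these regional shifts rest on was not tested.

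**Figure D5:**
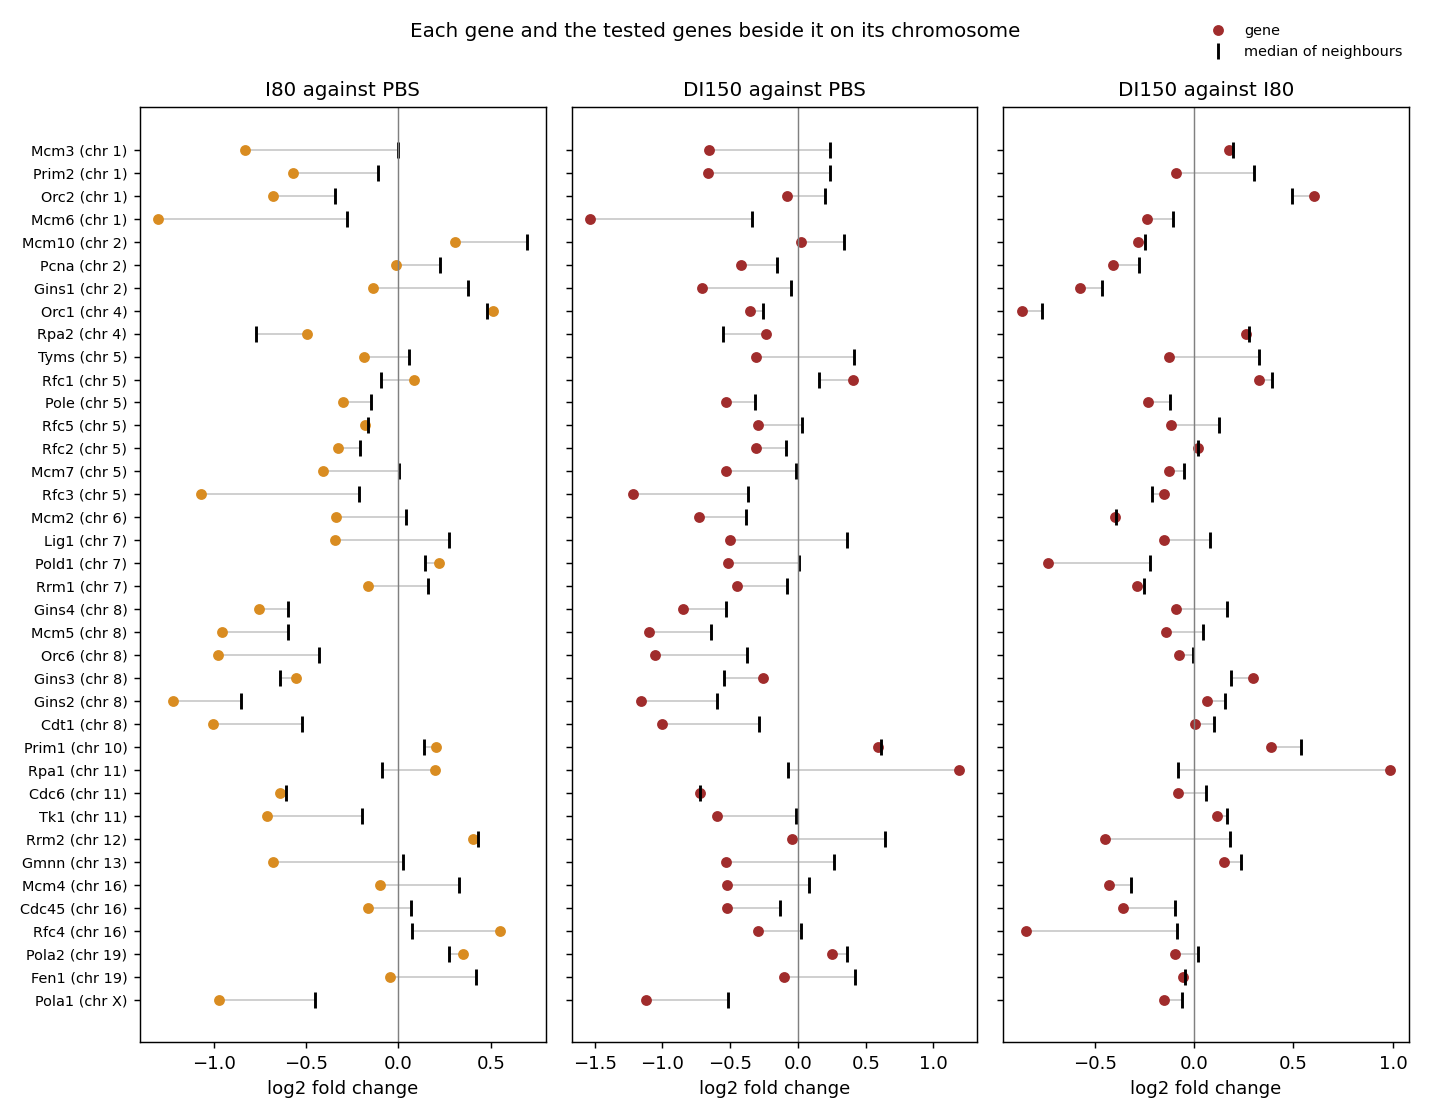
Log2 fold change of each replication gene (point) and the median of its 20 nearest tested neighbours, 10 on each side (tick, 10 in all for Rfc3), ordered along the chromosomes, for each treated line against PBS and for DI150 against I80. Orc1, Prim1 and Cdc6 lie near their neighbours in all 3 panels, and Rpa1 lies far from its own in both panels with DI150.

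Among the remaining replication genes, a list of 47 from textbook knowledge, chosen with earlier results known, more fell than rose in both lines. In I80, 20 of 47 fell and 10 rose (42.6% and 21.3%, median -0.19), and in DI150 23 fell and 5 rose (48.9% and 10.6%, median -0.28). Of all genes tested, 34.2% fell and 32.3% rose in I80, and 36.1% fell and 32.7% rose in DI150. Samhd1, which degrades deoxynucleotides, stood at 56.3 and 62.9 CPM in I80 and 31.4 and 35.6 CPM in DI150, against 122 and 125 CPM in PBS. The PBS libraries were highest and the DI150 libraries lowest, with 2.07-fold lower levels in I80 and 3.68-fold lower levels in DI150 than in PBS (limma adjusted p = 3.43e-05 and 1.48e-06). Dscc1, part of an alternative clamp loader, fell by 1.23 and 1.21 on the log2 scale in I80 and DI150. Orc4, a further subunit of the origin recognition complex, stood at 69.2 and 69.0 CPM in I80 and 51.9 and 55.4 CPM in DI150, against 31.0 and 30.7 CPM in PBS. It was 2.24-fold higher in I80 and 1.74-fold higher in DI150 (limma adjusted p = 7.79e-06 and 5.40e-05). Top1, the topoisomerase that relieves supercoils, rose by 0.69 and 0.56 on the log2 scale, and Dna2, a flap nuclease, by 0.45 and 0.57.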

How the data were processed

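RNA of 6 libraries was depleted of ribosomal RNA, prepared with a stranded total RNA kit and sequenced, per the labels' protocols. Alignment with STAR to mm10 is named in the submitters' processing notes. Which program counted reads per gene, with which annotation and whether by strand, is not given in the sources used here, so values of genes that overlap on opposite strands are uncertain. The authors deposited a single table of CPM (read counts scaled to sum to 1000000 a library) for 24454 Entrez gene numbers, of which 99.7% had a symbol in the RefSeq table. In it, 100.0% of the deposited CPM values were whole reads within a tolerance of 1e-06, which gave the read totals.

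The 11428 genes that averaged 1 CPM or more were tested with limma 3.58.1 in R 4.3.3 (trended eBayes) on log2(CPM + 0.5), with the 3 groups fitted together on 3 residual degrees of freedom, no covariates and Benjamini-Hochberg adjustment. A fold change on this scale is slightly understated for low genes. The fold ratios printed as "-fold" are ratios of mean CPM. The step was run on simulated data in which few genes changed, and only in DI150. Most genes tested were called against PBS in the real data, so that run cannot show how the step performs here. The 38 genes and the other gene lists were chosen with earlier results of these data known. Values in every library are given, in each of 8 role groups, for the gene with the largest and the smallest change in DI150 against PBS, the gene with the largest change in I80 against PBS, and every gene called with a log2 fold change of at least 1 in size. Of the other lists, the 2 largest called rises and the 2 largest called falls in each comparison against PBS were taken. Values of Pcna and the comparison with chromosome neighbours were added after values had been seen.

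Alternatives were pseudocounts of 0.1 and 1, no filter and a minimum mean of 5 CPM, TMM, median-of-ratios and quantile scaling, robust variances, only the 4 libraries compared, replicate number as a block, leaving out each library, and edgeR 4.0.16 and DESeq2 1.42.0 on the recovered reads. Libraries were treated as unpaired in the main fit. Over the genes tested, the difference of replicate 1 from the other library of its group correlated at 0.0228 between I80 and PBS. The correlation was -0.0551 between DI150 and PBS and 0.213 between DI150 and I80, and what the latter rests on was not tested. The other DI150 library is number 3, so for DI150 only replicate 1 matches in number. The column with number 3 in its name belongs to DI150 by its name and is called DI150 replicate 3. Promoter windows are RefSeq's on GRCm38.p6, and exon lengths and overlaps are from GENCODE M21.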

Additional observations from a re-analysis of the deposited data

Results flagged for a closer look

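The effects of the treated lines, each measured against the same PBS libraries, differed for 15 of the 38 replication genes and for 8 named genes of other lists. Over all genes tested, 43.8% were called, so the share among the 38 genes is not above that of all genes. The difference was tested directly as DI150 against I80 (limma adjusted p under 0.05), and values are log2 differences, positive where DI150 was higher.

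Rpa1 (0.99), Orc2 (0.60), Prim1 (0.39) and Rfc1 (0.33) were higher in DI150. Orc1 (-0.87), Rfc4 (-0.84) and Pold1 (-0.73) were lower in DI150 and lay on opposite sides of PBS in the treated lines. Gins1 (-0.57), Rrm2 (-0.45), Mcm4 (-0.43), Pcna (-0.41), Mcm2 (-0.40), Cdc45 (-0.36), Rrm1 (-0.28) and Pole (-0.23) were also lower in DI150. Of these 15 calls, 5 held in each of 19 alternative fits, those of Rpa1, Orc2, Orc1, Rfc4 and Pold1.

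Among genes outside the 38, Orc4 (-0.36) and Samhd1 (-0.82) of the other replication genes were lower in DI150. Of the G1 to S phase list, E2f2 (0.63), E2f6 (0.70) and Cdk6 (0.89) were higher and Ccnd1 (-0.65) was lower. Of the mitosis list, Kif2c (-0.65) was lower and Cenpa (0.31) was higher.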

How the results depend on the processing

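Over the 18 replication genes with values given by library, in the 3 comparisons, 985 values kept their side of the threshold, 29 lost a call, 12 gained one and 0 called values reversed. With each library left out in turn, a group of 1 library is assumed to vary like the others and there are fewer degrees of freedom. Of the 38 genes, 3 to 7 then rose and 17 to 25 fell in I80 (median -0.40 to -0.25), and 3 to 4 rose and 24 to 32 fell in DI150 (median -0.58 to -0.42). In DI150 against I80, 2 to 7 rose and 4 to 13 fell. Other replication genes higher numbered 6 to 10 in I80, 2 to 6 in DI150 and 1 to 4 in DI150 against I80, where 7 to 17 were lower. Over all genes, 1295 to 3008 were higher and 1187 to 2965 lower in DI150 than in I80. With only the 4 libraries compared, 7 of the 38 were higher in DI150 than in I80, and the cause was not tested. Libraries share only a number, and a replicate block with number 3 as its own level, which leaves fewer degrees of freedom, gave 4 of the 38 higher in I80 and 2 in DI150 than in PBS, and 2 higher and 7 lower in DI150 than in I80. Under this block, other replication genes higher numbered 2 in DI150 against PBS and 1 in DI150 against I80, and 1361 of all genes were higher and 1327 lower in DI150 than in I80. The other block, with the second library of each group sharing a level, moved no count by over 1.5 times. Taking each gene relative to its chromosome's median, an alternative chosen after seeing the data, kept the medians of the 38 genes below 0 in all 3 comparisons. With 2 libraries a group, small changes remain below what the test can call.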

Other observations

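Of 34 genes of mitosis, most fell in DI150. In I80, 10 fell and 6 rose (29.4% and 17.6%, median log2 fold change -0.088), and in DI150 24 fell and 1 rose (70.6% and 2.94%, median -0.42). Of all genes tested, 34.2% fell and 32.3% rose in I80, and 36.1% fell and 32.7% rose in DI150, so the share of mitosis genes that fell in I80 is not above that of all genes. Espl1, which encodes separase, the protease that parts sister chromatids, stood at 79.4 and 83.8 CPM in I80 and 75.5 and 77.1 CPM in DI150, against 189 and 162 CPM in PBS. Nuf2, a kinetochore protein, stood at 56.4 and 58.4 CPM in I80 and 50.2 and 55.3 CPM in DI150, against 109 and 107 CPM in PBS. Both genes were lower in all treated libraries than in either PBS library. Cenpa, the centromeric histone, was the gene that rose in DI150, at 126 and 144 CPM in I80 and 163 and 172 CPM in DI150, against 118 and 116 CPM in PBS. Bub1b and Kif2c, which act in the spindle checkpoint and in microtubule depolymerisation, rose in I80 by 0.38 and 0.33 on the log2 scale.

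Of 33 genes that act between G1 and S phase, 29 were tested, and Ccnd2, Cdkn1c, Cdkn2a and Cdkn2b had 0 reads in every library. In I80, 7 rose and 12 fell, and in DI150 10 rose and 13 fell. As shares of the 29 these are 24.1% and 41.4% in I80, and 34.5% and 44.8% in DI150, where the share that rose is near that of all genes. Over all genes tested, 32.3% rose and 34.2% fell in I80, and 32.7% rose and 36.1% fell in DI150. Cdk6, a kinase that drives exit from G1, stood at 41.3 and 36.2 CPM in I80 and 71.8 and 72.4 CPM in DI150, against 159.8 and 136 CPM in PBS. E2f2, an activating E2F factor, stood at 13.1 and 13.1 CPM in I80 and 21.6 and 19.6 CPM in DI150, against 49.98 and 48.1 CPM in PBS. Skp2, which marks the inhibitor p27 for destruction, stood at 33.6 and 34.0 CPM in I80 and 31.1 and 32.2 CPM in DI150, against 82.3 and 59.8 CPM in PBS. These genes were lowest in the treated libraries. Genes that rose included Ccnd1, the cyclin partner of Cdk6, at 2655 and 2457 CPM in I80 and 1666 and 1592 CPM in DI150, against 1373 and 1347 CPM in PBS, E2f6, a repressive E2F factor, at 78.6 and 77.2 CPM in I80 and 126 and 127 CPM in DI150, against 45.3 and 39.9 CPM in PBS, and Cdkn1a, at 339 and 284 CPM in I80 and 365 and 307 CPM in DI150, against 113 and 212 CPM in PBS. For Cdkn1a the PBS libraries stood further apart from each other than the libraries of either treated line.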
